A study of Glycine max with 24 samples.

Results

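This report describes the soybean transcripts whose cotyledon level was lowest at the middle stage of 3, named C-II. They were chosen from the deposited log2 values of the cotyledon by their stage means: a drop of at least 1.5 log2 units between C-I and C-II, a rise of at least 1.5 log2 units between C-II and C-III, and all 3 C-II replicates below all C-I and all C-III replicates. A further limit removed transcripts that gained 2 log2 units or more between leaf stages L-III and L-V. Of 73320 transcripts of 54175 genes, 263 transcripts of 243 genes met the rule, and 292 met its cotyledon part. The mirror rule in the cotyledon, with C-II highest, was met by 627 transcripts.

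RNA was sequenced from cotyledons and trifoliate leaves of the soybean cultivar Williams 82, in 9 cotyledon and 15 leaf libraries with 3 replicates per stage. By the methods, leaf replicates came from different plants. Cotyledon replicates were pairs of cotyledons called biological replicates, and p-values measure only the spread between these samples. The cotyledon stages were C-I, 4 days after planting, C-II at 15 days and C-III at 27 days. Plants sampled at C-I came from closed boxes of culture medium, and the older cotyledons from plants in soil, so at C-I the stage and the growth conditions cannot be told apart. The leaf stages were L-I, an opening trifoliate at the V3 growth stage, and 4 later ones up to L-V, labelled as 2, 4, 6 and 7 weeks after V3. The methods give somewhat different intervals for the leaf stages, and the stage names here follow the order of the labels.

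A cotyledon first feeds the seedling from the protein and oil stored in the seed. It then greens and works as a photosynthetic leaf, and at last yellows and exports what remains of its nitrogen and minerals before it drops. Light-harvesting proteins bind the chlorophyll that collects light in the plastid. Their 48 annotated transcripts summed to 91821 to 125932 normalized counts at C-I and 80743 to 127751 at C-II. The sums at C-III were 26759 to 31302, so the libraries of C-I and C-II overlapped and those of C-III were the lowest. No transcript carried the text glycinin or conglycinin, the main seed storage proteins, in the annotation used here, so the cotyledon label was not checked with them.

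Normalized counts are reads divided by the size factor of the library, and every count was a whole multiple of the value of 1 read. Libraries held 2163050 to 20839594 reads in cotyledon and 1852184 to 6887154 in leaf. The shallowest cotyledon library was C-II replicate 1, where 146 of the 263 transcripts had no read, against 16 in C-II replicate 2, which held 15297227 reads, and 96 in C-II replicate 3. No member was without a read in any C-I or C-III library. C-I replicate 1 was nearly as shallow as C-II replicate 1, with 2389927 reads. There 1 read was worth 2.99 normalized counts, so a count of 8.96 in C-I replicate 1 is 3 reads. The shallowest leaf library was L-I replicate 1, with 1852184 reads. In these bulk samples, fewer cells of a type and less RNA per cell cannot be told apart. Reads that matched more than 1 transcript had been discarded, so each transcript was seen only through its unique reads, and transcripts that share sequence with a sister gene or isoform are uncertain in level.

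The values in this paragraph chose the set and are a description. Stage means of the 263 transcripts had a median of 28.7 at C-I, 2.66 at C-II and 18.1 normalized counts at C-III. The middle 50% of the means ran from 11.2 to 77.5 at C-I, from 0.821 to 7.72 at C-II and from 7.13 to 46.5 at C-III, and the highest means were 4268, 342 and 981. The depth of the dip, taken as the smaller of both steps on the deposited log2 scale, had a median of 1.78 and ran up to 3.85. At C-II, 61 members had at most 3 reads in each library, and 13 of these had none in any library. Most of the set was thus expressed at a low to middle level, and at C-II many members lay at the limit of detection. Just inside the depth limit were Glyma10g36690.1 at 1.5006, Glyma03g21690.1, annotated as the rotamase FKBP 1, at 1.5019, and Glyma07g06240.1 at 1.5024. Just outside were Glyma15g20180.1 at 1.4991, Glyma03g30450.2 at 1.4977 and Glyma18g16370.1, annotated as nitrate transporter 1:2, at 1.4968.

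**Figure D1:**
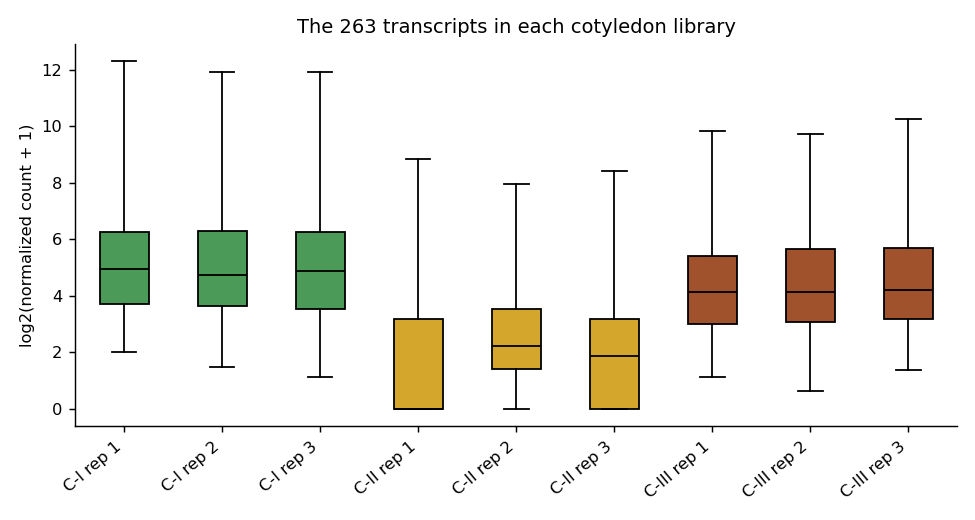
Levels of the 263 transcripts in each of the 9 cotyledon libraries, as log2(normalized count + 1); boxes span the middle 50% of values with a line at the median and whiskers reach the lowest and highest transcript. The 3 C-II libraries lie lowest, as the rule requires, and the median is at 0 in the shallow C-II replicate 1.

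The membership depended on single C-II libraries. Without C-II replicate 1 the rule took 255 transcripts, 173 of them among the 263. Without C-II replicate 2, the deepest, it took 603, with 248 shared, and without C-II replicate 3 it took 351, with 201 shared. Leaving out a C-I or C-III library gave 274 to 309 transcripts.

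Function could be read for 32 members of 31 genes, because annotation text was at hand for 3645 genes only. These were mostly genes listed for a change between leaf stages. Among them were enzymes and transporters, cell wall proteins, kinases and a few transcription factors.

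Glyma06g02120.1, annotated as an inactive purple acid phosphatase 1-like protein, had the deepest dip of the annotated members, 3.37 log2 units. Purple acid phosphatases are metal-bearing enzymes that release phosphate, but the annotation names this one inactive. Its counts were 179, 175 and 165 at C-I, 2.72, 9.03 and 7.97 at C-II, and 88.8, 125 and 68.6 at C-III. The C-II mean was 26.3-fold below that of C-I and 14.3-fold below that of C-III. All C-III libraries lay below all C-I libraries, and the log2 difference of -0.91 ± 0.35 (SE) had an adjusted p of 0.049 in limma but was smaller than the limit of 1.5 used for a call.

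Water channels of the plasma membrane let water pass between cells. Both transcripts of the gene Glyma10g35521, annotated as plasma membrane intrinsic protein 2, were members. Glyma10g35521.2 had 74.6, 42.2 and 70.6 counts at C-I, 2.72, 9.85 and 9.30 at C-II, and 103, 93.3 and 70.2 at C-III. Glyma10g35521.1 had 20.9, 24.6 and 53.8 at C-I, 2.72, 11.5 and 10.6 at C-II, and 69.9, 57.5 and 47.9 at C-III. In both transcripts the C-III and C-I libraries overlapped, and limma found no difference between these stages (adjusted p = 0.302 for the second transcript and 0.137 for the first).

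A protease and a lipoxygenase were at C-III near their C-I level. Glyma08g17230.2 is annotated as an aspartyl protease, an enzyme that cuts proteins. It had 275, 250 and 302 counts at C-I, 40.8, 31.2 and 41.2 at C-II, and 246, 229 and 230 at C-III, so its C-III mean was 85.2% of its C-I mean. Glyma08g10840.1, a lipoxygenase, which adds oxygen to unsaturated fatty acids, had 352, 386 and 473 counts at C-I, 81.6, 85.0 and 138 at C-II, and 284, 445 and 407 at C-III. Limma called no difference between C-III and C-I for the protease (log2 difference -0.23 ± 0.18 SE, adjusted p = 0.315) or the lipoxygenase (-0.11 ± 0.24, adjusted p = 0.737). All C-III libraries of the protease nevertheless lay below all its C-I libraries, while those of the lipoxygenase overlapped. Glyma15g02710.1, annotated as phospholipase D alpha 4, which cleaves membrane lipids, went above its first level. It had 8.96, 22.0 and 10.4 counts at C-I, 8.16, 0.410 and 1.33 at C-II, and 41.5, 60.0 and 57.4 at C-III. All C-III libraries lay above all C-I libraries, and the log2 difference was 1.95 ± 0.61 (limma adjusted p = 0.0179). The adjusted p ran from 0.0575 to 0.0669 when C-I replicate 1 or 3 or C-III replicate 2 or 3 was left out, and the C-II counts rest on 3, 1 and 1 reads. The 8.96 counts of C-I replicate 1 were also 3 reads, as many as in C-II replicate 1. Those 2 libraries thus differed for this transcript only through their size factors.

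Transcription factors bind DNA and set the level of other genes. Glyma20g04400.2 is annotated as NAC-like, activated by AP3/PI, and its gene is one of the soybean orthologs of AtNAP, a NAC factor that promotes leaf senescence in Arabidopsis. It had 8.96, 12.3 and 8.03 counts at C-I, 2.72, 1.64 and 0 at C-II, and 33.2, 25.0 and 46.3 at C-III. Every C-III library was above every C-I library, with a log2 difference of 1.71 ± 0.52 (limma adjusted p = 0.0157, against 0.0531 without C-I replicate 3 and 0.0679 without C-III replicate 3). It was not tested in leaf, where it had under 10 reads over the replicates of any stage, L-IV and L-V included, and no read at L-I, L-II or L-III. Glyma17g07010.1, AINTEGUMENTA-like 5, belongs to a family of AP2-type factors known from growing organs. Its counts were 92.5, 158 and 113 at C-I, 10.9, 9.85 and 3.98 at C-II, and 35.5, 41.9 and 54.2 at C-III, so all C-III libraries were below all C-I libraries. Its log2 difference of -1.43 ± 0.35 (limma adjusted p = 0.0048) stayed within the limit of 1.5. Glyma20g04630.1, a homeodomain-like protein, had means of 116% of C-I at C-III, with overlapping libraries.

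Signalling proteins made a further group. Glyma18g43730.2, a leucine-rich repeat protein kinase, had 50.8, 70.3 and 50.6 counts at C-I, 16.3, 8.62 and 2.66 at C-II, and 56.9, 36.7 and 70.2 at C-III. Its C-III and C-I libraries overlapped, with a log2 difference of -0.10 ± 0.47. The sister transcript Glyma18g43730.1 was not a member and was highest at C-III. Its means were 3.19, 0.907 and 8.015 counts at C-I, C-II and C-III. Glyma14g40090.2, calcium-dependent protein kinase 29, a kinase switched on by calcium, had 23.9, 25.5 and 22.9 counts at C-I, 0, 11.1 and 12.0 at C-II, and 33.2, 52.8 and 28.7 at C-III. All its C-III libraries lay above all its C-I libraries. Another transcript of the gene, Glyma14g40090.1, was not a member and stayed below its C-I level. Its means were 12.2, 1.30 and 4.70 counts at C-I, C-II and C-III. Glyma16g01790.1 (STRUBBELIG-receptor family 6) and Glyma15g09130.1 (receptor like protein 51), both receptor-like proteins of the cell surface, had C-III means of 63.2% and 86.0% of C-I. None of these 4 members was called between C-III and C-I.

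Cell wall proteins and surface proteins split in their last level. Pectin methylesterases remove methyl groups from wall pectin, and Glyma07g05145.1, pectin methylesterase 3, had 26.9, 85.2 and 89.5 counts at C-I, 13.6, 6.16 and 17.3 at C-II, and 36.7, 53.3 and 44.7 at C-III. Glyma05g37490.1, a pectin lyase-like protein, had 68.7, 29.9 and 45.4 at C-I, 13.6, 11.1 and 13.3 at C-II, and 121, 74.1 and 75.0 at C-III. The second lay higher at C-III in each library than in any C-I library, at a log2 difference of 0.93 ± 0.32 that was within the limit of 1.5. Glyma01g00771.1, arabinogalactan protein 20, a glycoprotein of the cell surface, had 4.74, 7.22 and 6.38 counts at C-III against 80.6, 49.2 and 37.7 at C-I, and fell by 2.94 on the log2 scale (SE 0.52, limma adjusted p = 0.000478). Glyma14g28090.1, tracheary element differentiation-related 7, a gene name taken from the formation of water-conducting cells, had 5.92, 8.33 and 4.79 counts at C-III against 26.9, 51.0 and 38.5 at C-I, and fell by 2.42 (SE 0.47, limma adjusted p = 0.000936). Both had at most 2 reads in any C-II library.

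**Figure D2:**
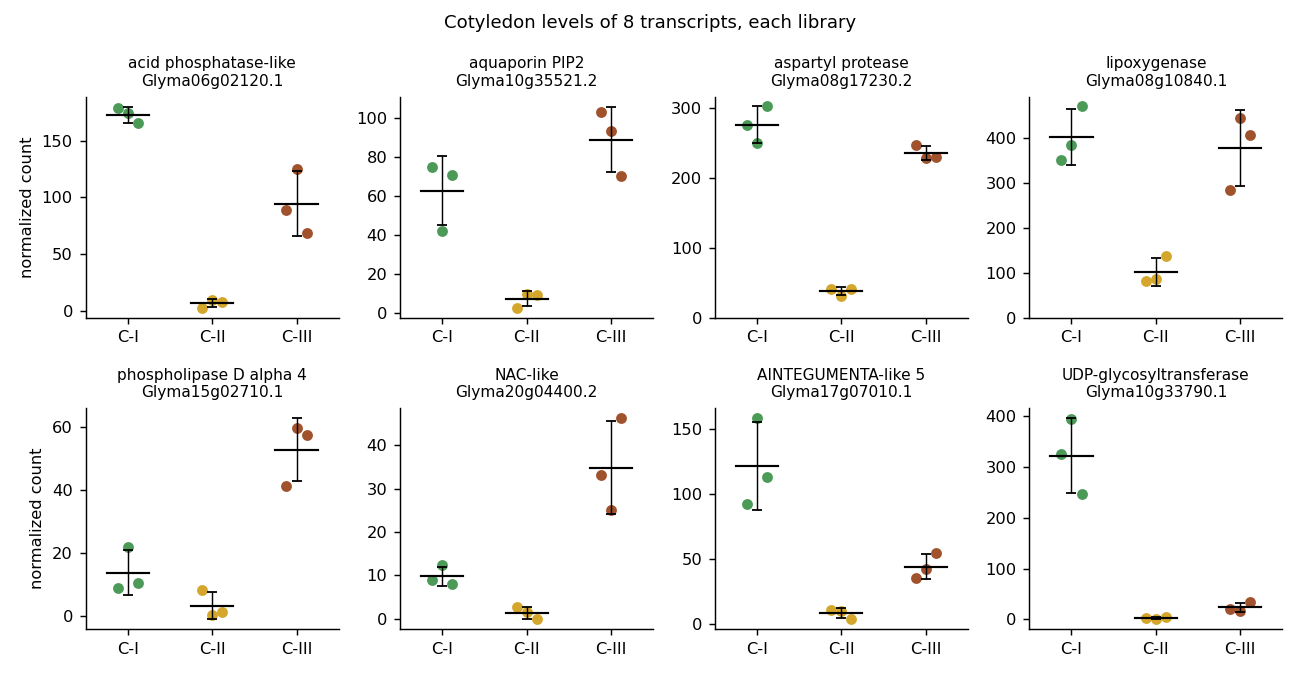
Normalized counts of 8 members in each cotyledon library at C-I, C-II and C-III; points are the 3 replicates, horizontal lines the means and bars the SD. The protease and the lipoxygenase are at C-III near their C-I level, phospholipase D alpha 4 and the NAC-like transcript lie above it, and the UDP-glycosyltransferase stays far below it.

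The rule did not set the difference between C-III and C-I, but it used the values of both stages against C-II. The counts and the p-values of single members in this comparison are therefore a description, and nothing is read from the shares. At C-III the mean was a median of 70.9% of that at C-I, and the middle 50% of the set ran from 40.2% to 107%. In 35 members the C-III mean was under 25% of the C-I mean, in 48 it was from 25 to 50%, in 110 from 50 to 100%, in 54 from 100 to 200%, and in 16 over 200%. All C-III libraries lay above all C-I libraries in 26 members and below them in 109, and they overlapped in 128. Limma called 8 members higher at C-III (3.04% of 263, against 14% of all 53357 transcripts tested) and 51 lower (19.4%, against 16.8%). Leaving out C-I replicate 3 or C-III replicate 3 gave 4 members higher each, with 45 and 50 lower, and a pseudocount of 0.1 gave 3 higher and 23 lower, against 8 and 51. The median log2 difference was -0.42 for the members and -0.03 for all transcripts. Scaling by total reads moved the median of all transcripts up by 0.25 log2 units and gave 11 members higher and 34 lower, with medians of -0.17 for the members and 0.22 for all. Among the 202 members with over 3 reads in at least 1 C-II library, 4 were higher and 35 lower.

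The largest falls between C-I and C-III were in 3 members with no annotation at hand. Glyma09g32120.1 had 24.9, 17.5 and 14.4 counts at C-III against 5025, 3864 and 3915 at C-I, and fell by 7.77 on the log2 scale (SE 0.31, limma adjusted p = 1.33e-09). With 8.16, 4.10 and 2.66 counts at C-II, its C-III mean was 0.443% of the C-I mean, so it met the rule with a small step after a very large fall. Glyma17g18440.1 fell by 5.54 (SE 0.83, limma adjusted p = 0.000125), with 24.9, 19.2 and 25.5 counts at C-III against 1388, 645 and 1549 at C-I. Glyma13g43250.1 had no read in any C-II library, and 26.1, 13.6 and 4.79 counts at C-III against 454, 288 and 487 at C-I. Against a floor of 3 reads per library, its C-I mean was at least 91.9-fold higher than C-II and its C-III mean at least 3.32-fold higher.

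Among annotated members, those that transfer sugar to small molecules stayed low. Glyma10g33790.1, a UDP-glycosyltransferase, had 21.3, 16.1 and 33.5 counts at C-III against 325, 395 and 246 at C-I, and fell by 3.75 (SE 0.36, limma adjusted p = 2.65e-06). Glyma02g11680.1, UDP-glucosyl transferase 73B3, had no read at C-II, and 2.37, 1.67 and 3.19 counts at C-III against 20.9, 24.6 and 12.8 at C-I. It fell by 2.56 (SE 0.48, limma adjusted p = 0.000689). A floor of 3 reads is 3.55 counts in C-III replicate 1 and 4.79 in C-III replicate 3. Its counts in both of these libraries thus lay under 3 reads. The co-chaperone family BAG was represented by Glyma15g09850.1, BCL-2-associated athanogene 2, with 11.8, 5.83 and 3.19 counts at C-III against 86.6, 78.2 and 100 at C-I, a fall of 3.63 (SE 0.51, limma adjusted p = 6.97e-05). Glyma06g47430.1, biotin F, named after an enzyme of the synthesis of the vitamin biotin, fell by 2.56 (SE 0.57, limma adjusted p = 0.00245). In each of these the C-III and C-I libraries did not overlap.

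The largest rises between C-I and C-III were also in members without annotation at hand. Glyma13g24940.1 had 148, 184 and 183 counts at C-III against 8.96, 15.8 and 14.9 at C-I, a log2 difference of 3.63 ± 0.59 (limma adjusted p = 0.000223). At C-II it had 0, 4.93 and 0 counts, and in leaf its highest stage mean was 0.343. Both transcripts of Glyma19g05570 rose: Glyma19g05570.2 had 41.5, 54.7 and 33.5 counts at C-III against 5.97, 5.27 and 7.23 at C-I (log2 difference 2.61 ± 0.43, limma adjusted p = 0.000267), and Glyma19g05570.1 had 30.8, 47.2 and 25.5 against 5.97, 9.67 and 3.61 (2.30 ± 0.50, limma adjusted p = 0.00209). Of the 8 called rises, 6 were these 3, the phospholipase, the NAC-like transcript and Glyma08g17530.1, whose call was lost in limma without any 1 of the 6 libraries compared (adjusted p = 0.0745 to 0.104). The other two, looked up after the values were seen, were Glyma16g27136.1, with 510, 446 and 474 counts at C-III against 104, 84.4 and 151 at C-I, and Glyma17g06770.1, with 13.0, 20.5 and 16.0 against 11.9, 3.52 and 2.81.

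**Figure D3:**
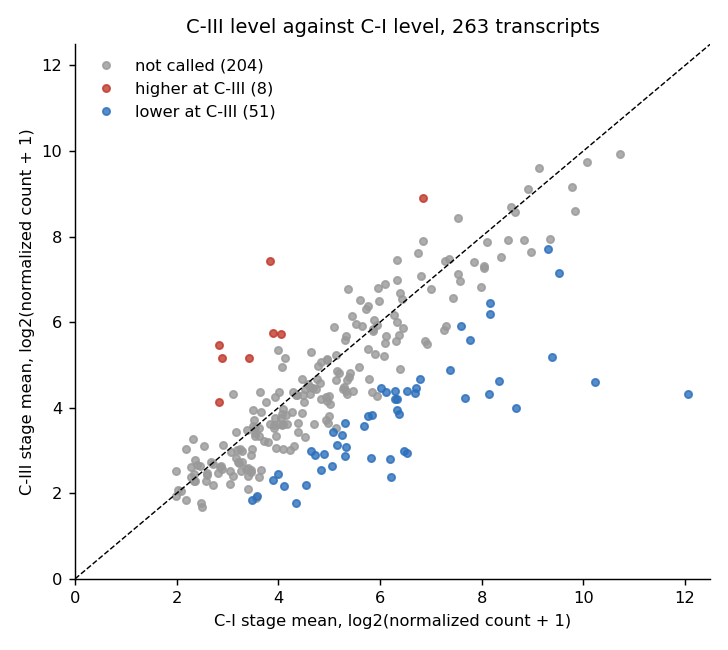
Mean level at C-III (vertical axis) against mean level at C-I (horizontal axis) of the 263 transcripts, both as log2(normalized count + 1), with a dashed line of equal levels. Most points lie at or below the line, 51 are called lower and 8 higher at C-III, and the point far to the right is Glyma09g32120.1.

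The leaf time course gives a readout that the rule used through L-III and L-V, where it removed 29 transcripts that met the cotyledon part but rose late in leaf. Shares that involve these stages are partly fixed by that choice, so they are also given for the 292 transcripts without the limit, of which 249 were tested in leaf. In leaf 220 members passed the filter of 10 reads in a stage, 43 did not, and 2 of these had no leaf read. Because the filter keeps a member that is high in a single stage, the counts below are descriptions of the members that passed. The highest stage mean was at L-I in 134 members (60.9%, against 34.6% of all transcripts tested), at L-II in 28 (12.7% against 15.3%), at L-III in 10 (4.55% against 13.0%), at L-IV in 7 (3.18% against 13.4%) and at L-V in 41 (18.6% against 23.7%). Without the limit on leaf, L-I was the highest stage in 137 of 249 (55.0%) and L-V in 66 (26.5%, against 23.7% of all transcripts tested).

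**Figure D4:**
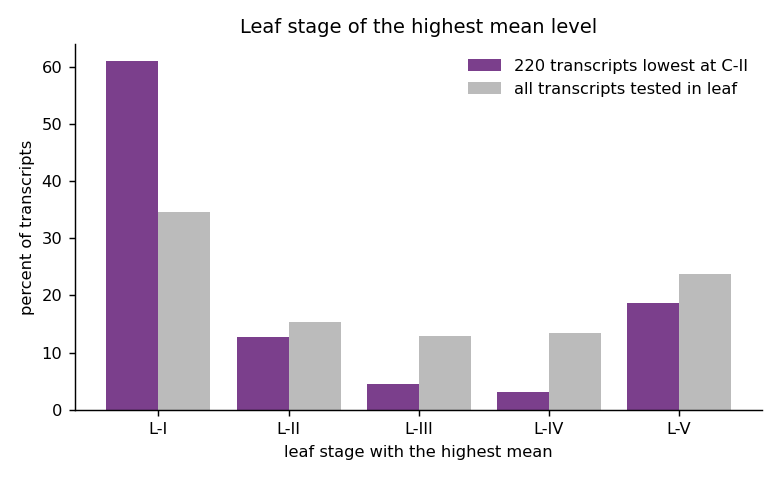
Percent of transcripts with their highest mean at each of the 5 leaf stages, for the 220 members tested in leaf (purple) and all 50940 transcripts tested in leaf (grey). L-I holds 60.9% of the members and 34.6% of all transcripts, and the share of members at L-V is lowered by the limit on leaf in the rule.

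Between L-I and L-II limma called 72 members lower (32.7%, against 9.73% of all transcripts) and 5 higher (2.27%, against 5.02%), with a median log2 difference of -0.87 for the members and -0.04 for all. Between L-I and L-V, 88 were lower (40%, against 19.2%) and 12 higher (5.45%, against 11.9%), with medians of -1.02 and 0.00. Without the limit on leaf, 76 of 249 were lower (30.5%) and 7 higher (2.81%) at L-II, and 89 were lower (35.7%) and 26 higher (10.4%) at L-V. Scaling by total reads moved the median of all transcripts up by 0.26 between L-I and L-V, where 85 members were then lower and 15 higher, at a member median of -0.74. Without a filter the counts were 72 lower and 5 higher of 261 at L-II, and 90 lower and 12 higher at L-V. Rebuilding the set without the shallow C-II replicate 1 gave 67 lower and 7 higher of 218 at L-II, and 86 lower and 14 higher at L-V. The annotation came largely from genes changed in leaf, and it moved with these counts: 23 of the 31 annotated members tested fell at L-II (74.2%), and 49 of the 189 without annotation (25.9%). At L-V the counts were 24 of 31 (77.4%) and 64 of 189 (33.9%). Each share without annotation was above that of all transcripts. The rule chose members that fell between C-I and C-II. The paper reports that genes changing at both early steps, C-I to C-II and L-I to L-II, mostly did so in the same direction. The leaf shares were not set against those of other transcripts that fell between C-I and C-II. They are thus not shown to be particular to this set.

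Large falls between L-I and L-II were seen in 3 members whose C-III mean was below that of C-I. Glyma10g33790.1, the UDP-glycosyltransferase, had 4.49, 1.19 and 1.47 counts at L-II against 1503, 645 and 932 at L-I, a fall of 8.29 (SE 0.67, limma adjusted p = 8.09e-07). The unannotated Glyma09g32120.1 had 4.49, 4.78 and 1.47 counts at L-II against 32709, 94.1 and 3127 at L-I, and fell by 8.96 (SE 1.36, limma adjusted p = 0.00026). Its L-I replicates differed far more from each other than those of the glycosyltransferase, yet none overlapped L-II. Glyma13g03810.1 belongs to a family of lipid-transfer and protease inhibitor proteins. In the cotyledon it had 242, 330 and 188 counts at C-I, 27.2, 10.7 and 13.3 at C-II, and 101, 91.4 and 144 at C-III. In leaf it had 12.3, 28.7 and 52.3 at L-II against 1009, 560 and 808 at L-I, a fall of 4.80 (SE 0.56, limma adjusted p = 2.25e-05).

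The protease, the phospholipase and the lipoxygenase were all highest in the youngest leaf. The aspartyl protease Glyma08g17230.2 had means of 127, 21.2, 5.95, 2.26 and 1.28 counts over the 5 leaf stages in order, and fell by 5.96 between L-I and L-V (SE 0.80, limma adjusted p = 2.44e-05). Phospholipase D alpha 4, Glyma15g02710.1, had 39.8, 32.4 and 16.8 counts at L-I, 1.12, 0 and 1.47 at L-II, and no read from L-III on. The lipoxygenase Glyma08g10840.1 had means of 138, 30.5, 35.4, 29.5 and 41.4, and fell by 2.14 between L-I and L-II (SE 0.38, limma adjusted p = 0.000933). These 3 did not regain their L-I level in the last leaf stage, whereas in the cotyledon the rule requires that all 3 were higher at C-III than at C-II.

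Both water channel transcripts had a different leaf course. Glyma10g35521.2 had means of 175, 41.3, 31.7, 53.5 and 117 counts over the leaf stages, with 173, 82.2 and 95.9 at L-V against 190, 134 and 200 at L-I. It fell by 2.11 between L-I and L-II (SE 0.41, limma adjusted p = 0.00194), and the L-V and L-I libraries overlapped, with a log2 difference of -0.63 ± 0.41 (limma adjusted p = 0.246). Glyma10g35521.1 had means of 108, 29.1, 25.0, 45.3 and 75.5. The lowest mean of both was at L-III.

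The leucine-rich repeat protein kinase and a copper protein followed the more common course. Glyma18g43730.2 had 6.73, 0 and 2.94 counts at L-II against 111, 66.9 and 119 at L-I, a fall of 4.96 (SE 0.74, limma adjusted p = 0.000225). Glyma06g10500.1, a cupredoxin, which is a small copper-binding protein, had 3.37, 9.55 and 0.736 counts at L-II against 256, 94.1 and 173 at L-I, a fall of 5.23 (SE 0.68, limma adjusted p = 6.91e-05). No L-II library reached an L-I library in either. Glyma02g07530.1, annotated as plant mac12-16 protein, had 6.73, 4.78 and 0 counts at L-II against 90.9, 66.9 and 98.6 at L-I, and in the cotyledon means of 91.0% of C-I at C-III.

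A few members rose in leaf. Glyma18g07520.3, maternal effect embryo arrest 59, had 12.3, 11.9 and 17.7 counts at L-II against 0, 2.09 and 0.986 at L-I, a log2 difference of 3.01 ± 0.46 (limma adjusted p = 0.00029). In the cotyledon it had 152, 158 and 147 counts at C-I, 19.0, 22.2 and 9.30 at C-II, and 49.7, 49.1 and 67.0 at C-III. Glyma02g36605.1, without annotation, had 4.49, 9.55 and 4.42 counts at L-II against 0, 1.05 and 0 at L-I (log2 difference 2.42 ± 0.54, limma adjusted p = 0.00502). Glyma14g19220.1 had 130, 23.6 and 9.52 counts at L-V against 0, 1.05 and 1.97 at L-I (4.15 ± 0.75, limma adjusted p = 0.00039), and Glyma08g17530.1 had 18.7, 6.17 and 3.66 against 0 in each L-I library (3.12 ± 0.72, limma adjusted p = 0.0026). The rise of Glyma14g19220.1 was large in L-V replicate 1 and small in L-V replicate 3.

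Later leaf steps changed fewer members. Between L-II and L-III, limma called 12 lower (5.45%, against 1.26%) and 0 higher (background 0.664%), with 3 higher at an unadjusted p under 0.05 and 0 by limma-voom. The count of 12 became 5 to 7 when any 1 of the 6 libraries was left out. The BAG family member Glyma15g09850.1 had 0.845, 1.71 and 0 counts at L-III against 12.3, 16.7 and 28.0 at L-II, a fall of 3.47 (SE 0.59, limma adjusted p = 0.00651) that was kept without each library and lost with a pseudocount of 0.1 (limma adjusted p = 0.1). Glyma13g38040.1 fell by 3.22 (SE 0.78, limma adjusted p = 0.0416), a call that was lost without any 1 of the 6 libraries. Between L-III and L-IV, 2 members rose (0.909%, against 1.78%, and 8 of 249, or 3.21%, without the limit on leaf) and 0 fell (background 0.758%), with 11 lower at an unadjusted p under 0.05 and 0 by limma-voom. Glyma14g40580.1 had 55.3, 118 and 109 counts at L-IV against 23.7, 23.9 and 14.2 at L-III (log2 difference 2.10 ± 0.36, limma adjusted p = 0.00523). Glyma13g44790.1 had 4.81, 25.1 and 10.8 against 0, 1.14 and 0 (3.24 ± 0.63, limma adjusted p = 0.0117), and its call was lost without L-III replicate 1, L-III replicate 3 or L-IV replicate 2.

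**Figure D5:**
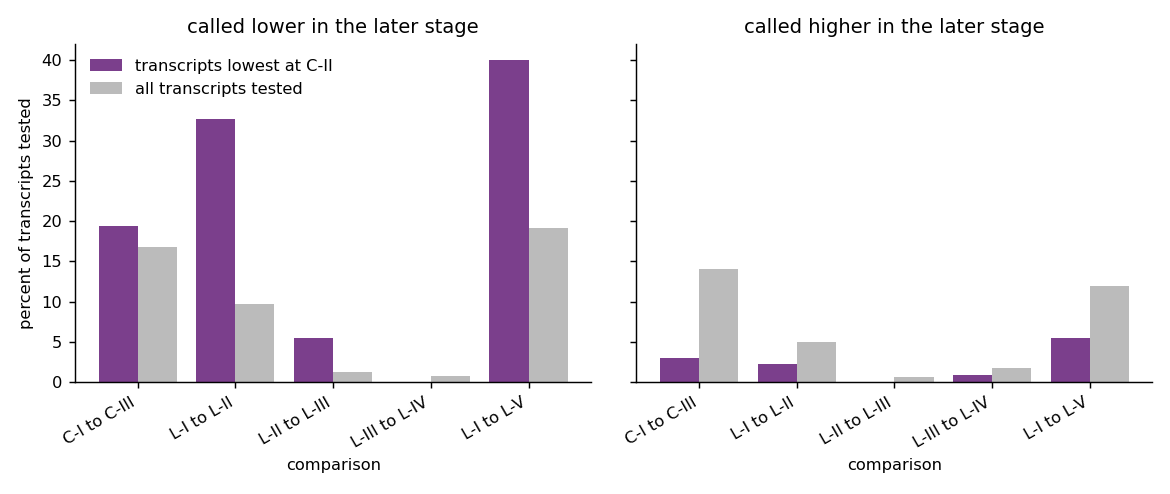
Percent of transcripts called by limma as lower (left) or higher (right) in the later stage of each comparison, for the members tested (purple) and all transcripts tested (grey). In leaf the members' bars for lower calls exceed the grey ones between L-I and L-II, L-II and L-III, and L-I and L-V, and those for higher calls are below the grey ones throughout, where the limit on leaf in the rule removed 29 late-rising transcripts.

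The rule took transcripts, not genes, and the other transcripts of the same genes were read separately. Of the 243 genes, 227 had 1 member, 14 had 2 and 2 had more. Glyma04g05280 had 5 member transcripts, whose C-III means were 52.6% to 83.8% of C-I, and Glyma06g05280 had 3, at 22.2% to 25.9%. These genes were singled out after their values were seen. The member genes had 108 other transcripts, which came from 65 genes, and 103 of these transcripts were tested. Of these, 62 fell and 0 rose between C-I and C-II (background 13.8% and 11.6% of all transcripts), and 15 rose and 0 fell between C-II and C-III (background 3.65% and 4.93%). In 97 of the 103 the mean log2 level was lower at C-II than at both other stages, against 27.2% of all transcripts tested, and 11 were called for both steps. Transcripts of 1 gene overlap in sequence and are not independent of the members. In the members themselves the same steps were called in 262 and 239 cases, which the rule fixes. Among all 53357 transcripts, 373 were called as falling and then rising.

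Members lay on all 20 chromosomes, where they made 0.229% to 0.869% of the genes. Within 5 gene models of each other lay 6 pairs of member genes. On chromosome 7 these were Glyma07g09110 and Glyma07g09180, on chromosome 8 Glyma08g06575 with Glyma08g06621 and Glyma08g45120 with Glyma08g45150, and on chromosome 16 Glyma16g17460 with Glyma16g17500 and Glyma16g27136 with Glyma16g27171. The C-III means of Glyma07g09110.1 were 17.4% of C-I, and those of its neighbours Glyma07g09180.1 and Glyma07g09180.3 were 118% and 84.0%. On chromosome 8 the C-III means were 120% of C-I for Glyma08g06575.1 and 37.8% for Glyma08g06621.2, and 94.0% for Glyma08g45120.2 and 47.6% for Glyma08g45150.6. On chromosome 16 they were 23.5% for Glyma16g17460.1 and 60.5% for Glyma16g17500.1, and 420% for Glyma16g27136.1 and 97.3% for Glyma16g27171.1. Next to each other on chromosome 13 were Glyma13g43910 and Glyma13g43920, named here after their values were seen. Glyma13g43910.1 had the deepest dip of all, with 44.8, 125 and 68.6 counts at C-I, 0, 6.98 and 5.31 at C-II, and 160, 205 and 158 at C-III. Its neighbour Glyma13g43920.1 had 693, 708 and 612 at C-I, 0, 15.2 and 13.3 at C-II, and 43.8, 28.6 and 33.5 at C-III, and fell by 4.23 between C-I and C-III (SE 0.77, limma adjusted p = 0.000566).

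Gene lists drawn from the annotation show which families took part in the same steps. They hold 1714 tested transcripts of 38 lists, and many were annotated because they changed in leaf, so the lists are not a neutral sample. Between C-I and C-II, 364 of them fell (21.2%, against 13.8% of all transcripts tested) and 625 rose (36.5%, against 11.6%). Between C-II and C-III, 124 rose (7.23%, against 3.65%) and 269 fell (15.7%, against 4.93%). These shares of all transcripts are the background for each count of a list, and no list was tested. In the photosynthesis list, 50 of 157 fell and 1 rose between C-I and C-II, 117 fell and 0 rose between C-II and C-III, and none was a member. Cell wall enzymes fell first (62 of 115, with 18 rising) and then showed 8 rises and 15 falls, with 2 members, the pectin methylesterase and the pectin lyase-like protein.

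Of the 38 lists, 20 held more rises than falls at the first step, 14 held more falls and 4 held equal numbers, and the lists below are examples. Among the equal ones, gibberellin, cytokinin and brassinosteroid pathways had 4 rises and 4 falls. Autophagy and the metabolism of raffinose, galactinol and trehalose had 0 of each. The list for breakdown of branched-chain and other amino acids held no transcript. Of 123 NAC factors, 5 fell and 44 rose between C-I and C-II, and 27 rose and 1 fell between C-II and C-III, with Glyma20g04400.2 the 1 member. Of 65 WRKY factors, 1 fell and 40 rose at the first step and 3 rose and 6 fell at the second, with no member. Of 378 protein kinases, 48 fell and 218 rose at first, and 20 rose and 17 fell later, with 2 members. Amino acid transporters rose in 9 of 23 and then in 8, with 1 fall at each step and no member.

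Among lists for the breakdown of stores and for transport, starch breakdown had 3 rises and 0 falls of 6 at the first step and 2 rises and 1 fall at the second, and beta-oxidation had 0 rises and 1 fall of 3 and then neither, with no member in either list. The lists that follow hold members. Of 62 proteases, 20 fell and 23 rose at the first step and 8 rose and 3 fell at the second, and the aspartyl protease was the 1 member. Of 43 lipases and phospholipases, 21 fell and 3 rose, and then 4 rose and 3 fell, with phospholipase D alpha 4 the 1 member. Of 28 lipoxygenase and oxylipin transcripts, 2 fell and 6 rose, and then 1 rose and 14 fell, so the member Glyma08g10840.1 was the 1 that rose at the second step. Of 8 water channel transcripts, 3 fell and 1 rose, and then 2 rose and 1 fell, both rises being the members. Of 15 vegetative storage protein and acid phosphatase transcripts, 11 fell and 3 rose, and then 1 rose, Glyma06g02120.1, and 4 fell. Among 29 transcripts of the list for seed storage proteins, 16 fell and 6 rose, and then 1 rose and 9 fell. Its member was Glyma13g03810.1, whose family name includes the 2S albumins. Of 69 sulfate, phosphate and potassium transporters, 2 fell and 29 rose, and then 7 rose and 1 fell, with Glyma10g24620.1 the 1 member.

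Other annotated members can be given by their values. The potassium channel beta subunit 1 transcript Glyma10g24620.1 had 740, 599 and 596 counts at C-I, 81.6, 52.5 and 35.9 at C-II, and 252, 254 and 225 at C-III, which is 37.8% of the C-I mean. Its C-III libraries were all below those of C-I, at a log2 difference of -1.40 ± 0.25 (limma adjusted p = 0.00045) that was within the limit of 1.5. Glyma14g11850.2, of the phototropic-responsive NPH3 family, known from signalling of light direction, had 22.5, 21.1 and 19.1 counts at C-III against 71.7, 58.0 and 62.2 at C-I, and fell by 1.56 (SE 0.33, limma adjusted p = 0.00161). Its fall was 1.48 without C-I replicate 1 and 1.31 with scaling by total reads, both under the limit. Glyma11g20840.1, a 6-phosphogluconate dehydrogenase family protein, and Glyma03g21690.1, the rotamase FKBP 1, which helps proteins fold, had C-III means of 91.8% and 65.6% of C-I. Glyma11g04950.2, ACT domain repeat 1, had 11.9, 14.9 and 7.63 counts at C-I, 0, 4.51 and 3.98 at C-II, and 22.5, 21.7 and 14.4 at C-III. Its libraries at C-III overlapped those at C-I, at 170% of the C-I mean.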

How the data were processed

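Per the methods, the authors aligned reads of each library to the Gmax_189 transcripts with Bowtie, kept reads that matched a single transcript, and used DESeq's size factors. The deposited values are variance-stabilized log2 values, 1 table per tissue, each scaled separately, so levels were not compared across tissues. They were converted back to normalized counts, and all values checked were whole multiples of 1 read within 0.05. Strand use is not given in the sources used here. No column was left without a sample (0 unmapped).

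The filter asked for 10 or more reads in the sum of the 3 replicates of a stage. Transcripts that passed were tested with limma 3.58.1 (R 4.3.3, intensity trend) on log2(normalized count + 1), 1 fit per tissue, with Benjamini-Hochberg adjustment over all transcripts of a comparison. A call needed an adjusted p under 0.05 and a log2 difference over 1.5 in size. The fit was tested on simulated data. SE comes from the model. Floors of 3 reads cover counting error only. P-values measure only the spread between the 3 samples of a stage, which by the methods were different plants in leaf; for the pairs of cotyledons this is not stated. Cotyledon libraries were sequenced 3 per lane. For leaf the methods give 1 lane for the 3 replicates of each stage, and it is not clear if all stages shared it. The tissues were run on different Illumina instruments.

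Members, lists and tests were chosen with earlier results of these data known. The criteria for naming members took the 10 deepest annotated ones, up to 3 per list, and the largest called rises and falls without overlap. They also took the NAC-like transcript, those at the depth limit and neighbours. Further annotated members were named outside these criteria. Annotation text came from the study's supplementary sheets, some of them shortened. Gene sequences and annotation for the Gmax_189 models were not used here. Alternatives were pseudocounts of 0.1 and 5, other filters, scaling by total reads, the deposited log2 values, limma-voom, no limit on the difference, a replicate block, each library left out and, chosen after seeing the data, rebuilt member sets.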

Additional observations from a re-analysis of the deposited data

How the results depend on the processing

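The set held 754 transcripts at a depth limit of 1, 71 at a limit of 2 and 409 on the log2(normalized count + 1) scale (260 shared), and 255 to 603 with 1 library left out. Counts of members called between C-I and C-III were 26 with a pseudocount of 0.1, 39 among members with over 3 reads in a C-II library (a smaller set) and 49 to 54 with 1 library left out. Between L-I and L-II they were 51 with a pseudocount of 0.1, 39 with a mean of at least 10 (109 members tested) and 57 to 71 with 1 library left out. Between L-II and L-III they were 5 with a pseudocount of 0.1 and 5 to 7 with 1 library left out, between L-III and L-IV 1 with a mean of at least 10, 8 in the set with no limit on leaf and 1 to 3 with 1 library left out, and between L-I and L-V 51 with a mean of at least 10 and 86 to 100 with 1 library left out. Listed transcripts called were 913 to 981 between C-I and C-II and 333 to 409 between C-II and C-III with 1 library left out. With a pseudocount of 0.1 the limma adjusted p between C-I and C-III was 0.205 for the NAC-like transcript, 0.0841 for phospholipase D alpha 4, 0.103 for biotin F and 0.06 for Glyma19g05570.1, so these calls were lost. The causes were not tested. Of 1214 alternative fits of the named calls, 1093 kept the call, 121 lost it and 0 reversed.

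Replicate numbers did not pair the libraries: deviations of same-numbered libraries correlated at -0.0761 to 0.0704 in cotyledon and -0.197 to 0.200 in leaf, and the best match in another stage had the same number in 7 of 18 cases in cotyledon and 15 of 60 in leaf. With the replicate number as a block, 57, 77, 8, 2 and 101 members were called between C-I and C-III, L-I and L-II, L-II and L-III, L-III and L-IV, and L-I and L-V, and 1000 and 391 listed transcripts at the first and second cotyledon step. Depth limits the low members most, since 1 read was worth 2.72 normalized counts in C-II replicate 1 and 2.99 in C-I replicate 1.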
